A study of Mus musculus with 145 samples.

Results

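Among 51 mouse mammary tumours that had grown under the PI3K alpha inhibitor BYL719, 25 had a dominated transposon insertion profile, in which a few sites held much of the read signal, and 26 had a diffuse profile, in which reads were spread over many sites. The members were chosen by measured values, the reads themselves. Positions read in every resistant library were dropped, each other position and strand was kept only in the library with the most reads there, and each tumour was placed above (dominated) or at and below (diffuse) the median share of kept reads held by its 10 most-read sites. The other 94 libraries of the series were from untreated tumours, and the title of 1 of them repeats the mouse and gland of another. The dominated tumours came from 18 mice and the diffuse tumours from 17, of 25 mice with a resistant tumour, so tumours of one mouse were not independent samples.

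All tumours of the series carried 4 alleles, WAP-Cre, LSL-PB, LSL-PIK3CA(H1047R) and ATP1. The WAP promoter, active in the mammary gland in late pregnancy, drove Cre. Cre in turn switched on the piggyBac transposase (LSL-PB) and H1047R, an activated form of PI3K alpha (LSL-PIK3CA), while ATP1 supplied the mobile transposons. Mice of the resistant group received BYL719 at 30 mg/kg daily from a tumour volume of 250 mm3, and a tumour was called resistant when it grew over at least 3 consecutive measurements within 3 weeks. Neither the dominated nor the diffuse tumours were labelled as such by the study, and treatment, dose and genotype were the same in both. Insertions were read from genomic DNA, so cell types could not be checked against markers of expression.

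The piggyBac transposon inserts at the tetranucleotide TTAA and can activate, truncate or silence the gene in which it lands. Cells in which an insertion favours growth expand, and the insertions carried by an expanded clone then gain reads relative to those of other cells. Splinkerette PCR amplifies the junction between transposon and genome, and its read counts also depend on how well each junction amplifies. Without molecular identifiers a read was not a molecule, and intervals on read shares below cover counting error only.

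The following sites were the ones on which the description turns, being the most-read site of their tumour or the most-read site of their tumour in the named gene. The first 8 genomic bases at the site are given on the strand of the insertion, 5′ to 3′, as the deposited table holds them, with the TTAA target in capitals. The last line shows a low-read neighbour of a dropped position, which lacks the target.
Trps1 in dominated tumour 47, chr15:50678307: TTAAtgaa
Trps1 in dominated tumour 49, chr15:50662401: TTAAtggg
Trps1 in dominated tumour 28, chr15:50662447: TTAAggtt
Trps1 in diffuse tumour 18, chr15:50726938: TTAAtgta
Trps1 in diffuse tumour 1, chr15:50801892: TTAAagtt
Kmt2c in dominated tumour 48, chr5:25336063: TTAActga
Fbxw7 in dominated tumour 50, chr3:84839424: TTAAactt
Fbxw7 in diffuse tumour 10, chr3:84964751: TTAAagta
Nf1 in dominated tumour 8, chr11:79378016: TTAAagat
Met in dominated tumour 20, chr6:17481464: TTAAgacc
Cul1 in dominated tumour 19, chr6:47464893: TTAAaacc
Kalrn in dominated tumour 34, chr16:34226375: TTAAataa
Sox6 in dominated tumour 34, chr7:115706529: taaagttt
All positions are on mm10. The bases after the target differed between these sites. Over the 20 most-read kept sites of each tumour, the base following TTAA was A at 39.4% of the 459 dominated sites at TTAA and at 38.1% of the 507 diffuse sites, and G at 30.9% and 31%.

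Several libraries stood apart before any comparison. Tumour 42 held 51 reads in all and kept 2 reads at 2 sites, and its share of 100% rests on those reads alone (exact Clopper-Pearson 95% interval 15.8 to 100). Tumours 34, 50 and 51 kept 27, 31 and 41 sites, after 92.5%, 86% and 86.1% of their reads fell on the dropped positions. All 6 tumours with fewer than 100 kept sites were dominated. In tumours 34 and 50, 9 and 3 of the 20 most-read kept sites lay within 10 bp of a dropped position or of a more-read site, and these were counted as separate sites. No other tumour had such a neighbour in its 20. Total reads had a median of 124775 in dominated tumours and 139782 in diffuse tumours, and ran from 51 to 1604365 over both.

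The share that defined the classes is given here as a description. In dominated tumours the 10 most-read sites held from 19.5% to 100% of kept reads, with a median of 31.7%, and in diffuse tumours from 5.46% to 19.2%, with a median of 14.3%. The lowest dominated tumour, tumour 12, held 19.5% (exact 95% interval 19.3 to 19.8) and the highest diffuse tumour, tumour 13, held 19.2% (upper bound 19.4). These intervals overlapped, and both tumours came from the same mouse, so the classes met without a gap. The plot of shares by tumour shows a continuous decline with a steep rise over the 4 highest tumours.

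**Figure D1:**
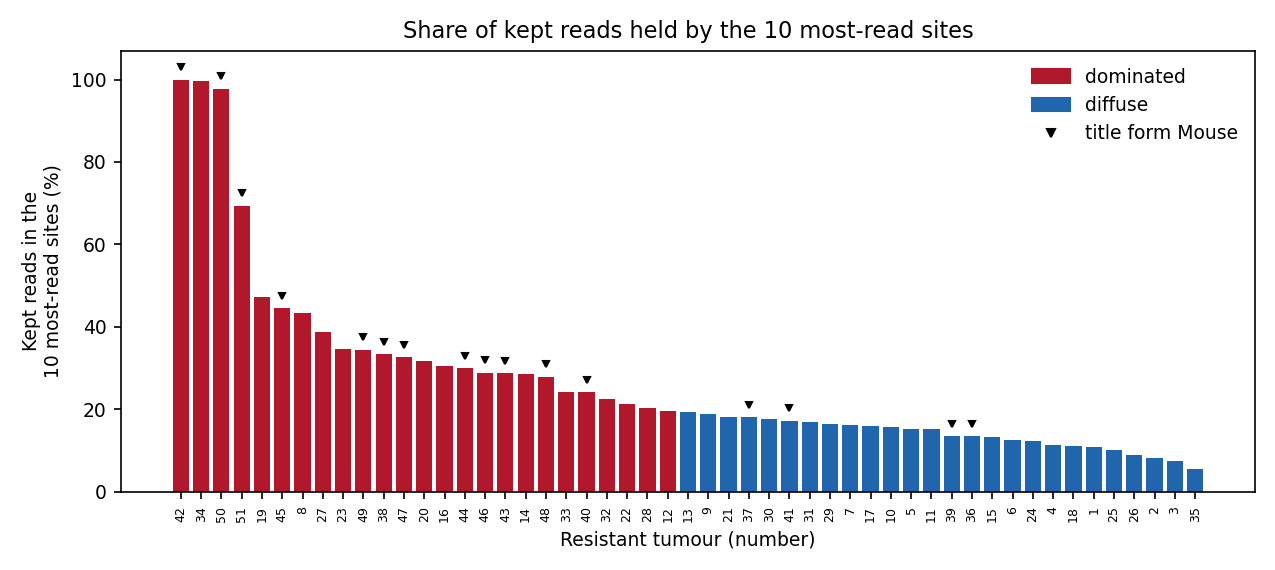
Percent of kept reads held by the 10 most-read sites (vertical axis) in each of the 51 resistant tumours (horizontal axis, tumour number), ordered by that percent. Red bars are the 25 dominated and blue bars the 26 diffuse tumours, and triangles mark titles of the Mouse form. Tumours 42, 34, 50 and 51 stand above 69% and the classes meet between 19.5% and 19.2%.

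A single site accounted for much of the signal in some dominated tumours. The most-read site held a median of 9.38% of kept reads in dominated tumours (2.97% to 50%) and 2.63% in diffuse tumours (0.799% to 9.52%). In dominated tumours a median of 60 sites (1 to 380) held 50% of the kept reads, against 109 sites (33 to 450) in diffuse tumours. A median of 2 dominated sites, and of 4 diffuse sites, reached at least 50% of the reads of the top site of their tumour. In tumour 19 the top site alone reached that level, while in tumour 51 the number was 12 sites. Tumour 35, the most diffuse, had 15 such sites, and its top site, in Polr2b, a subunit gene of RNA polymerase II, held 3049 reads or 0.799%.

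**Figure D2:**
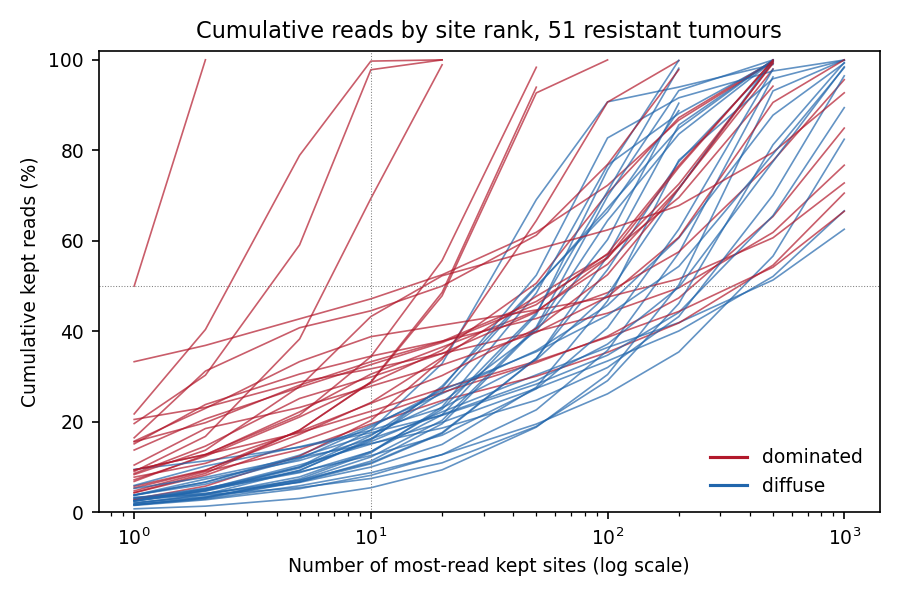
Cumulative percent of kept reads (vertical axis) against the number of most-read kept sites counted (horizontal axis, log scale), 1 line for each of the 25 dominated (red) and 26 diffuse (blue) tumours, joined between fixed ranks up to 1000 as far as a tumour has that many sites. Dotted lines mark 10 sites and 50% of reads, and the median tumour needed 60 sites to reach 50% in the dominated class and 109 in the diffuse class.

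Number of sites and number of reads overlapped between the classes. Dominated tumours kept a median of 727 sites (2 to 4674) and 69355 reads, and diffuse tumours 873 sites (273 to 17441) and 78894 reads. Tumour 26, with the most kept sites of all, was diffuse, at 8.77%. Tumour 32, with 4674 kept sites, was dominated at 22.4%, with 9.39% of its reads at 1 site on chromosome 10. The positions dropped because all resistant libraries listed them were chr7:115706530 in the Sox6 region, chr10:95288284 in the Cradd region and chr11:67017939 outside a gene region. They took a median of 28.9% of a dominated library (4.47% to 92.5%) and 40.1% of a diffuse library (6.07% to 69.4%). Sox6 encodes a transcription factor and Cradd an adaptor of cell death signalling. Their part in the classes was not tested.

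**Figure D3:**
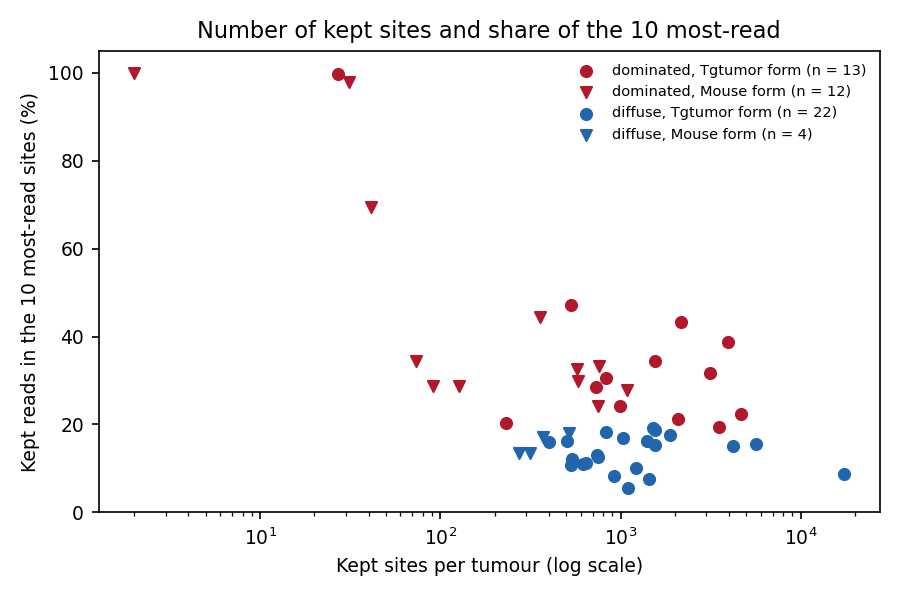
Percent of kept reads in the 10 most-read sites (vertical axis) against the number of kept sites per tumour (horizontal axis, log scale). Colour gives the class and shape the title form (circles Tgtumor, triangles Mouse). The 6 tumours with fewer than 100 kept sites are all dominated, while from 273 sites upwards both classes are found.

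Both classes arose in the same animal in most mice that allowed the comparison. Of 17 mice with at least 2 resistant tumours, 10 had tumours of both classes, 4 had dominated tumours only and 3 had diffuse tumours only. How many mice would have both classes with labels placed at random was not computed, so these counts are a description only. In the mouse of tumours 8, 9 and 10 the 10 most-read sites held 43.3%, 18.8% and 15.6% of kept reads. The mouse of tumours 1, 2 and 3 gave 3 diffuse tumours, between 7.5% and 10.8%. Tumours 50 and 51, also of 1 mouse, were both dominated, at 97.8% and 69.4%. Before positions were assigned to a single library, the sets of 20 most-read sites had a mean of 0.25 sites in common over 36 pairs of tumours from one mouse and 0.285 over 1239 pairs from different mice. The largest overlap was 6 sites, between tumours 26 and 35 of different mice, which were both diffuse. Tumour 34, which was dominated, had 5 in common with tumour 50 and 5 with tumour 4, also of other mice.

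The titles of resistant tumours had 2 forms, and the dominated class held more of one of them. Of the dominated tumours 13 had the Tgtumor form and 12 the Mouse form, and of the diffuse tumours 22 and 4 (52% and 84.6% Tgtumor, two-sided Fisher exact test, p = 0.0167, adjusted p = 0.0646 by Benjamini-Hochberg over the 7 properties tested). Tumours of the Mouse form kept a median of 335 sites, and those of the Tgtumor form 1101. Their median shares in the 10 most-read sites were 29.4% and 16.9%. The labels do not say what the forms stand for, and the part of the title form in the results below was not tested beyond the values given for each form. With class labels permuted within mice, the difference in title form had p = 0.639. Only mice with both classes and both title forms inform that test, and most mice with both classes had a single form. It therefore cannot judge a difference between mice. With the split made on the 5 most-read sites the difference in title form was -40.5 percentage points (Fisher exact test, adjusted p = 0.0132). Tumours of glands 1 to 3 made up 84% of the dominated class (21 of 25) and 65.4% of the diffuse class (17 of 26), a difference that did not pass (Fisher exact p = 0.199, adjusted p = 0.349, and within mice p = 0.0185, adjusted p = 0.127).

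Where the leading sites lay was not used by the split, and it was compared over the 20 most-read kept sites of each tumour, 1002 sites in all. Of these, 51.7% lay in a gene region of the authors' table, 96.4% at TTAA and 21.9% on chromosome 10. None of the 5 measures of location passed the adjusted threshold of 0.05. The plot of locations shows that the tumours of both classes covered much the same range in each.

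Dominated tumours had 57.2% ± 14.1 (SD, n = 25) of their leading sites in gene regions and diffuse tumours 48.1% ± 12.3 (n = 26). The classes overlapped, with single tumours from 40% to 100% (median 55%) and from 25% to 80% (median 47.5%). The difference of 9.12 percentage points had p = 0.0185 by permutation of tumour labels and adjusted p = 0.0646. Without tumour 42, left out after its values were seen, it was 6.8 points (permutation p = 0.0578). It was 7.39 points (p = 0.0445, adjusted p = 0.311) with the 45 libraries of at least 100 kept sites, and 1.76 points without chromosome 10. With the deposited column named div it turned to -1.91 points (p = 0.655). Within the Tgtumor form the means were 55.4% and 48.9%, and within the Mouse form, with 4 diffuse tumours, 59.2% and 43.8%. For the most-read site alone, 17 of 25 dominated and 16 of 26 diffuse tumours had it in a gene region, and 6 and 6 had it on chromosome 10.

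Chromosome 10 held 21% ± 12.1 of the leading sites in dominated tumours and 21.9% ± 10.8 in diffuse tumours (permutation p = 0.806). At TTAA lay 95.4% ± 11.9 and 97.5% ± 4.06 (p = 0.477). Genes with a score of at least 5 in the untreated tumours of the authors' deposited table held 11.2% ± 7.68 and 13.5% ± 8.46 (p = 0.347). The plus strand held 47.4% ± 10.1 and 53.7% ± 10.4 (p = 0.0415, adjusted p = 0.0968), and p = 0.566 with labels permuted within mice. With the split made on the 5 most-read sites the plus strand difference was -8.61 points (permutation, adjusted p = 0.0132), and with the div column -10.6 points (adjusted p = 0.00252). In each of these 4 measures n was 25 and 26 tumours.

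**Figure D4:**
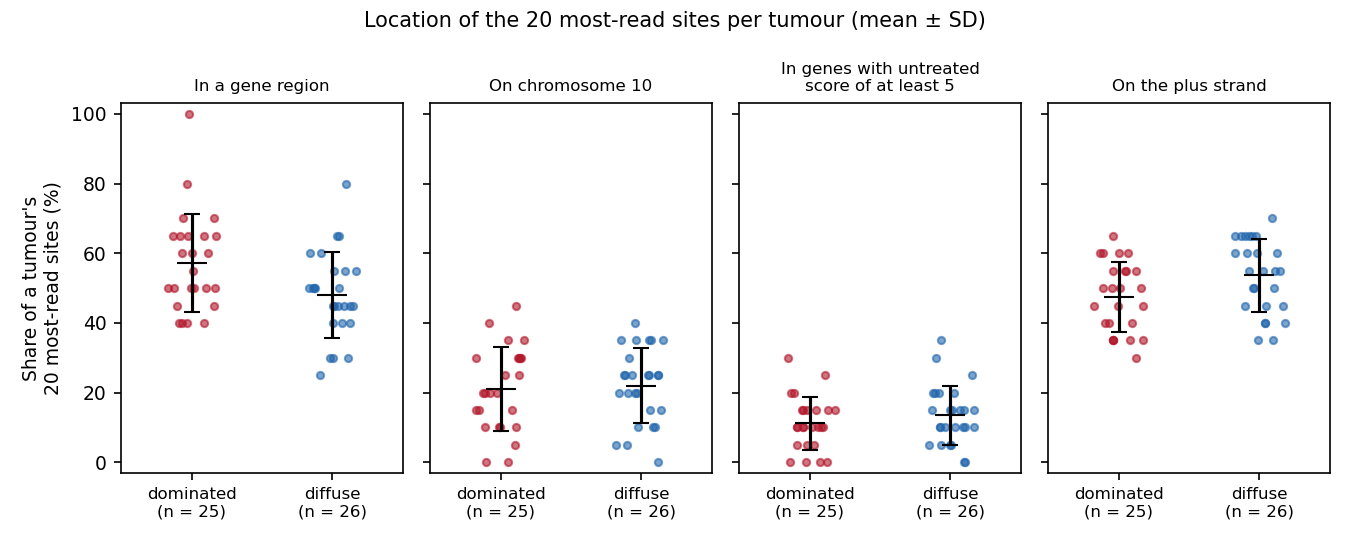
Percent of a tumour's 20 most-read sites (vertical axis) that lay in a gene region, on chromosome 10, in genes with an untreated score of at least 5, or on the plus strand, by class (horizontal axis, 25 dominated and 26 diffuse tumours). Points are tumours, and the black marks give mean ± SD. The classes overlap in all 4 panels, with means of 57.2% and 48.1% for gene regions.

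The genes hit by leading sites were mostly different from tumour to tumour in both classes. A gene was scored as hit in a tumour if any of that tumour's 20 most-read sites fell within the gene region. Of 406 genes hit in at least 1 resistant tumour, 195 were hit in dominated tumours only, 175 in diffuse tumours only and 36 in both. Only 47 genes were hit in at least 2 tumours and 13 in at least 3. A dominated tumour hit a median of 10 genes and a diffuse tumour 9. A gene hit in a single tumour falls in one class by construction, so these counts do not show that the classes differ.

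The minimum of 5 tumours was reached by 5 genes, and 0 of them differed between the classes (0% called, Fisher exact test, two-sided, p adjusted by Benjamini-Hochberg). None had an unadjusted p under 0.05, and the smallest was 0.248. With 25 and 26 tumours a gene hit in 5 tumours could not go below p = 0.0226, so the test could show large differences only.

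Trps1 encodes a GATA-type zinc finger repressor of the mammary epithelium. It was the gene hit in the most tumours of either class. Leading sites lay in its region (chr15:50654759-50892041) in 8 of 25 dominated tumours (32%, exact 95% interval 14.9 to 53.5) and 13 of 26 diffuse tumours (50%, 29.9 to 70.1), with 8 mice in each. The odds ratio was 0.478 (0.128 to 1.69, Fisher exact p = 0.258, adjusted p = 0.419), an interval that holds both a lower and a higher share in dominated tumours. Among the 94 untreated libraries, with shared positions assigned over both groups, the share was 29.8%, and without the library of repeated mouse and gland 30.1%. Within the Tgtumor form it was 38.5% of 13 dominated and 50% of 22 diffuse tumours, and within the Mouse form 25% of 12 and 50% of 4. The difference, dominated minus diffuse, was -41.2 percentage points when the 17 highest and 17 lowest tumours were compared (2 against 9 tumours, Fisher exact p = 0.0255, the one gene tested there). Those tumours came from 2 and 6 mice, which this test ignores, and with 1 tumour per mouse, at the median split, the difference was -5.13 points (Fisher exact p = 1). At the median split it was -37.5 points with the deposited column named div, added after the data were seen (6 against 16, adjusted p = 0.043), and 1.08 points with the deposited column named cnt2, under which 26 tumours changed class.

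Trps1 sites led both kinds of tumour. It held the most-read site of 3 dominated tumours, with 8157 reads in tumour 47 (13.8% of kept reads), 1213 in tumour 49 (9.38%) and 490 in tumour 28 (2.97%). It held the most-read site of 2 diffuse tumours, with 421 reads in tumour 18 (2.58%) and 897 in tumour 1 (1.69%). The leading Trps1 sites of tumours 28 and 49, from different mice, lay 46 bp apart on the same strand. In all, the sets held 31 Trps1 sites, 11 in dominated and 20 in diffuse tumours. Of the dominated sites 3 lay on the plus strand and 8 on the minus strand, and of the diffuse sites 9 and 11. The 3 diffuse tumours of the mouse of tumours 1, 2 and 3 carried 3 Trps1 sites each among their 20. Each position and strand was kept in a single library, so these kept sites differ between the tumours by construction.

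Kmt2c, which encodes a histone H3 lysine 4 methyltransferase and is a breast tumour suppressor, was hit in 5 dominated tumours (20%, 95% interval 6.83 to 40.7) and 2 diffuse tumours (7.69%, 0.946 to 25.1), each from a different mouse. The difference did not pass (odds ratio 2.94, 0.424 to 34, Fisher exact p = 0.248, adjusted p = 0.419). In untreated tumours the share was 3.19%. In tumour 48 the sites of rank 2 and 3 were both in Kmt2c, with 47690 reads (8.07%) and 10796 reads (1.83%). The other dominated tumours, 8, 14, 16 and 40, had 2460, 2880, 842 and 2322 reads there, and diffuse tumours 5 and 35 had 2032 and 1855. Both diffuse sites had the orientation of the gene, as did 4 of the 6 dominated sites. With the median taken within each title form the difference turned to -3.38 percentage points.

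Fbxw7 encodes an F-box protein through which a ubiquitin ligase marks MYC, cyclin E and NOTCH for degradation. It was hit in 4 dominated tumours (16%, 4.54 to 36.1) and 2 diffuse tumours (7.69%, Fisher exact p = 0.419). Tumour 50 had 12258 reads there (9.72%), and tumours 14, 33 and 8 had 1716, 799 and 688 reads, or at most 1.3%. In diffuse tumour 10 the most-read site of all was in Fbxw7, with 4075 reads (2.84%), and diffuse tumour 17 had 144 reads (2.11%) at a site of the extended region outside the RefSeq gene. All 3 diffuse sites had the orientation of the gene, against 1 of 4 dominated sites. The Arfip1 region of the authors' table spans 1393 kb and contains Fbxw7, and its 4 and 2 tumours were counted at the same sites. The diffuse class had the higher count for Grik2, a glutamate receptor subunit gene on chromosome 10, with 4 tumours against 1 (15.4% and 4%, Fisher exact p = 0.35).

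**Figure D5:**
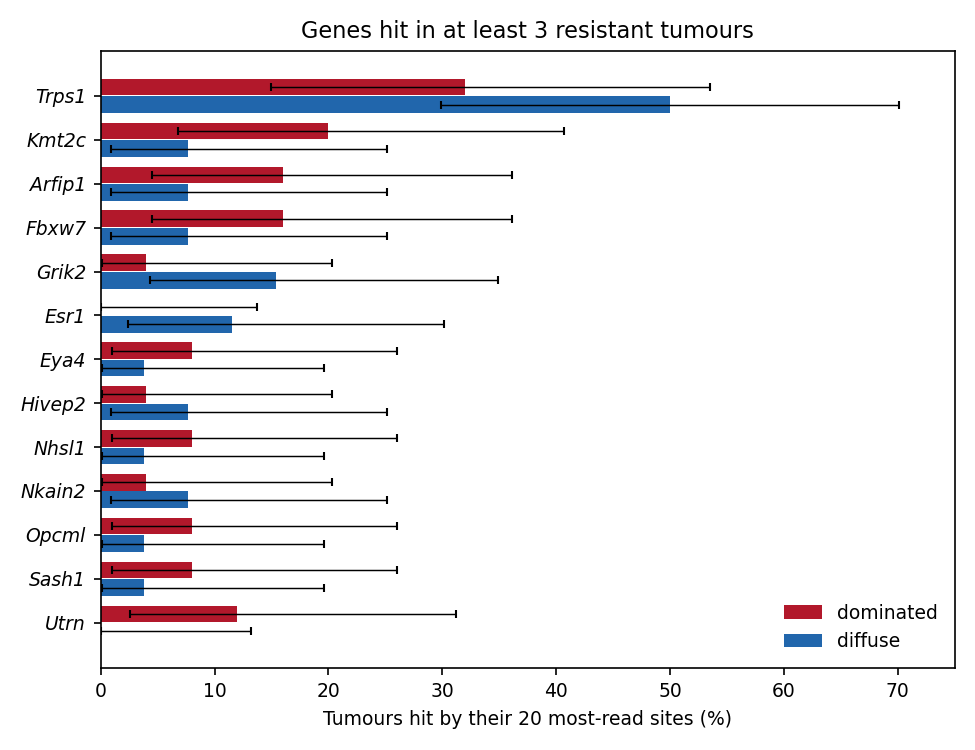
Percent of dominated (red, n = 25) and diffuse (blue, n = 26) tumours hit by their 20 most-read sites (horizontal axis) for the 13 genes hit in at least 3 resistant tumours. Lines are exact 95% intervals over tumours, and they overlap for every gene, including Trps1 at 32% and 50%.

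Genes hit in fewer than 5 tumours were not tested. Esr1, the estrogen receptor gene, lies on chromosome 10, which held 21.9% of all leading sites. Esr1 was hit in 0 dominated tumours (upper 95% bound 13.7%) and 3 diffuse tumours (11.5%, 2.45 to 30.2). Tumour 24 had sites of 1299 and 1271 reads there, tumour 13 of 1231 and tumour 41 of 247. Utrn, also on chromosome 10, encodes the dystrophin relative utrophin and was picked here after its values were seen. It was hit in 3 dominated and 0 diffuse tumours. Nf1 encodes the RAS-inactivating protein neurofibromin and is named in the series title. It had leading sites in 1 tumour of each class, and both tumours came from the same mouse. In dominated tumour 8 it held the most-read and the next most-read site, with 11401 reads (8.36%) and 7348 reads (5.39%). In diffuse tumour 10 it held 4 sites with 2251, 1328, 1176 and 664 reads, from 1.57% down to 0.462%. Each position and strand was kept in a single library, so the kept sites of the 2 tumours differ by construction. Whether these tumours shared an insertion in Nf1 was not tested. The Nf1 counts given here cover leading sites only and do not tell how often Nf1 was hit at any site. The percent of tumours hit in Nf1, as deposited by the authors, was 56.86% in resistant and 31.91% in untreated tumours.

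Tumours 34, 50, 51 and 19, the highest after tumour 42, each had their most-read site in a different gene, and Sox6 was among the 3 most-read sites of 2 of them. In tumour 34 the most-read sites were in Kalrn, a guanine nucleotide exchange factor (15089 reads, 21.8%), and in Sox6 (12936 reads, 18.7%). In tumour 50 they were in Cradd (24767 reads, 19.6%), in Ank3, which encodes ankyrin G (13479 reads, 10.7%), and in Fbxw7. Cradd and Sox6 also hold dropped positions, and the leading sites in them lay at other positions. In tumour 51 they were in Zeb2, a transcriptional repressor of epithelial genes (4809 reads, 9.04%), in Kpna1, a nuclear import factor (4127 reads, 7.76%), and in Sox6 (4060 reads, 7.63%). In tumour 19 the most-read site was in Cul1, the scaffold of the ubiquitin ligases to which FBXW7 belongs, with 2497 reads or 33.3% (95% interval 32.2 to 34.4), and the next, in Wdr17, had 270 reads (3.6%). Diffuse tumour 10 also had a Cul1 site, at rank 20 with 612 reads (0.426%). The percent of tumours hit in Kalrn, as deposited by the authors, was 88.24% in resistant and 19.15% in untreated tumours. For Sox6 it was 100% and 28.72%, and for Cradd 100% and 18.09%. Other genes named here had lower values in resistant tumours, such as Zeb2 (9.8% and 5.32%) and Cul1 (33.33% and 36.17%).

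The leading sites of some other dominated tumours were chosen for mention after their values were seen. In tumour 20 the most-read site was in Met, a receptor tyrosine kinase, in the orientation of the gene, with 6202 reads (20.5%). Tumour 38 led with Ntm, a neural adhesion molecule (37571 reads, 15.6%), tumour 44 with Pard3b, a polarity protein (19013 reads, 8.6%), and tumour 14 with Sash1, a scaffold protein (12313 reads, 7.21%). Outside gene regions lay the leading sites of 8 dominated tumours, among them tumours 27 (18513 reads, 15.7%), 45 (20378 reads, 16.5%) and 48 (61817 reads, 10.5%). Of the diffuse tumours, tumour 37 led with Foxp1, a forkhead transcription factor (1846 reads, 5.96%), and tumour 3 with Hivep2 (6636 reads, 3.2%). The highest share of a single diffuse site was in tumour 30, outside a gene region (3067 reads, 9.52%).

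Gene lists were read as counts of tumours hit. Each list is a selection of genes and not a whole family, so its counts cover its own members only. Over all 406 genes the median difference, dominated minus diffuse, was 0.154 percentage points. Mammary lineage transcription factors were hit in 9 dominated and 15 diffuse tumours. Of the 4 members hit, Trps1, Esr1 and Runx1 (0 and 1 tumour) had the higher share in diffuse tumours and Foxp1 was hit once in each class. The chromatin regulators of the list were hit in 6 and 3 tumours through Kmt2c, Kdm6a, a histone H3 lysine 27 demethylase (1 and 0), and Nipbl, the cohesin loader (0 and 1). Outside the list, Kdm1a, a histone demethylase gene, had the site of rank 8 in dominated tumour 20, and Hdac8, a histone deacetylase gene, 1 of the 2 reads of tumour 42. Genes of NOTCH, WNT and Hippo signalling counted 6 and 5 tumours, with Fbxw7 first and Nf2, which encodes merlin, once in each class. Of the adhesion and polarity genes 8 were hit, in 6 tumours of each class. Ctnna3, which encodes alpha-T-catenin, was hit in 0 and 2. The 7 long genes hit, among them Cntnap2 (2 and 0), Opcml (2 and 1) and Dmd (1 and 1), summed to 8 dominated and 4 diffuse tumours.

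Of the pathways around the drug target, the receptor tyrosine kinases of the list were hit in 2 dominated and 0 diffuse tumours, through Met and through Erbb4 in tumour 12 (1162 reads, 1.35%). The list leaves out the Eph receptors, of which Epha5 was hit in 1 tumour of each class and Epha6 in 0 and 2. RAS-MAPK brakes were hit by leading sites through Nf1 alone. RAS-MAPK activators were hit in 0 and 1 tumours through Sos2, an exchange factor of RAS. PI3K-AKT-mTOR brakes were hit through Depdc5, a subunit of the GATOR complex that restrains mTORC1, in dominated tumour 22 (181 reads, 1.14%) and diffuse tumour 26 (9114 reads, 0.684%). No tumour of either class had a leading site in a PI3K-AKT-mTOR activator or an NRF2 and redox gene. The cell cycle and p53 list counted 1 and 0 tumours (Ccnd3, a D-type cyclin), and the TGF-beta and SMAD list 0 and 1 (Acvr2a, an activin receptor, in tumour 11 with 1047 reads). Acvr1b, an activin receptor outside the list, had 2713 reads (2.19%) in the same tumour.

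Whether the resistant group as a whole was more dominated than the untreated group was asked with positions assigned over the libraries of both groups. The 10 most-read sites held 27% ± 21.8 of kept reads in resistant tumours (n = 51, median 19.4%) and 23.4% ± 26.3 in untreated libraries (n = 94, median 12.6%). The difference of 3.61 percentage points had p = 0.444 by permutation of group labels over the 25 and 23 mice. Without the library of repeated mouse and gland it was 4.44 points (permutation p = 0.311). With libraries of at least 100 kept sites it was 5.31 points (p = 0.0319). The 16 resistant tumours of the Mouse form were 15.1 points above the untreated tumours (p = 0.0163) and the 35 of the Tgtumor form were 1.61 points below, at -1.61 (p = 0.738). These 4 values were added after the data were seen. No title form occurs in both groups, so title form and treatment cannot be told apart.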

How the data were processed

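Transposon insertions of mammary tumours (51 resistant and 94 untreated libraries) were read from genomic DNA by splinkerette PCR and sequencing, per the labels' protocols. The series title names ATAC-seq, whereas the labels describe insertion mapping. Per the file headers, the authors deposited a table of read counts per position, strand and library, not scaled as far as the values show, with 2 further per-library columns, cnt2 and div, that the headers do not define and that served in alternatives only. Per the file headers, a second table deposited by the authors gives gene regions, the percent of tumours hit and a score of signed −log10 p-value per group. Genome build mm10 is from the submitters' processing notes. The names of aligner and site caller are not given in the sources used here. Of the per-sample columns 435, whose name prefixes end in N, were not used.

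Groups came from the labels and mice, glands and title forms from the titles. One title that lacks the point between mouse and gland was read as mouse 646087. Of 77013 positions with reads in a resistant library, beside the 3 dropped, 5899 (7.66%) had reads in at least 2 libraries, and 130 tied for most reads and were kept nowhere. Reads were not scaled for depth, so deeper libraries gain shared positions. Gene symbols came from RefSeq (GRCm38.p6) by identifier for 12384 of 13391 gene regions. Exons and introns were not assigned. Gene strands came from the RefSeq promoter table and were lacking for Trps1.

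Genes hit in at least 5 tumours were compared by Fisher exact tests, and 5 location measures by permutation of tumour labels (100000 resamples), all two-sided. Benjamini-Hochberg adjustment ran over the 5 genes and, apart, over the 7 properties (5 of location, title form and gland). Intervals are Clopper-Pearson, 95%. In the 48 libraries with at least 10000 kept reads the interval of the share of the 10 most-read sites was at most 1.7 percentage points wide. Genes were named where tested, where they held a site of rank 1 to 3 in the 5 tumours of highest share, where they held the most-read site of at least 2 tumours, and where a gene of the 13 lists was hit in at least 2 tumours, with Nf1 added. One gene named by this rule is not reported here. Tested on simulated data for dominated against diffuse tumours, with 200 of 1000 genes raised from 10% to 70% of tumours, the Fisher test called 99% of them with 3 other calls. The simulated difference was larger than that of any gene tested here, and simulated tumours were independent. The simulation therefore does not tell how often differences of the size seen would be called. The members, lists and tests were chosen with earlier results of these data known. Python 3.11.15, scipy 1.17.1, numpy 2.4.6, pandas 2.3.3 and matplotlib 3.10.9 were used.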

Additional observations from a re-analysis of the deposited data

How the results depend on the processing

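The main tests of the classes treated tumours as separate samples and did not pair them by mouse. An alternative permuted class labels within mice, read from the titles, since the labels number no replicates across classes. Neither the main tests nor this alternative, in which 10 mice had both classes, gave a call. Over the 21 alternatives, 0 genes were called except Trps1 (1 gene) with the 17 highest against the 17 lowest tumours and with the div column. The values below are dominated minus diffuse, in percentage points, and the causes of the changes were not tested. Chromosome 10 turned to 1.98 with 10 sites per tumour, 0.498 with shared positions kept in each library, 5.72 with the cnt2 column, 0.417 with at least 10000 kept reads, 3.43 with 1 tumour per mouse, 0.2 without tumour 42 and 0.543 with at least 100 kept sites. TTAA turned to 1.11 with 10 sites and 0.583 with at least 100 kept sites. With the cnt2 column genes of high untreated score turned to 3.52, glands 1 to 3 to -4.92, and Trps1 to 1.08. Gene regions turned to -1.91 with the div column, and Kmt2c to -3.38 with medians within title form. Plus strand and Tgtumor form passed the threshold with the split on 5 sites (-8.61 and -40.5) and with the div column (-10.6 and -48.3). Trps1 had an unadjusted Fisher exact p under 0.05 also with 100 sites (12 against 20 tumours, p = 0.0448) and with the split on 20 sites (6 against 15, p = 0.0227). Resistant minus untreated shares were 5.31 and 15.1 past the threshold, and -1.61, under the restrictions given above. Depth limited tumours 42, 19 and 17, with fewer than 10000 kept reads.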
